A study of Homo sapiens with 12 samples.

Results

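The gene expression of U251 glioblastoma cells that stably carried a short hairpin RNA against the long noncoding RNA INCA1 (shINCA1) was compared with that of U251 cells carrying a control hairpin (shCTRL), both without added interferon. U251 is an established human glioblastoma line, and a short hairpin RNA is processed by the cell into a small RNA that directs the degradation of matching transcripts. The comparison took every library of these 2 conditions, 3 of shINCA1 and 3 of shCTRL, which is 6 of the 12 libraries of the series. The other 6 libraries are the same hairpin lines after 24 h of interferon gamma (IFNγ), and they enter here only for the question of whether a difference between the lines depended on IFNγ. All cells are labelled as passages 14 to 18, and poly(A) RNA was sequenced with a strand-specific kit. Whether the 3 libraries of a group come from separate cultures is not said in the labels, and each p-value therefore measures only the spread between these libraries, which may be technical. Nor do the labels say whether each hairpin stands for 1 line or clone. An effect of the hairpin's target and any other difference between the shINCA1 and shCTRL cells, called lines here, cannot be told apart.

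The INCA1 long noncoding RNA is transcribed from the locus of CD274, the gene of the immune checkpoint ligand PD-L1, and the series asks how it acts on interferon signalling in tumour cells. In that pathway, interferon binds its receptor at the cell surface, the JAK kinases attached to the receptor phosphorylate STAT proteins, and STAT dimers and IRF factors then switch on genes whose promoters hold interferon response elements. Cells also run this pathway at a low level without added interferon, and the untreated libraries show the lines in that resting state. Glioblastoma cells further differ among themselves in how neural or mesenchymal they are, which is read from matrix, adhesion and developmental genes.

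The hairpin could not be checked against its target. The entry named INCA1 in the table is a protein-coding gene on chromosome 17, and the long noncoding RNA of the CD274 locus was not analysed here under a name of its own. The chromosome 17 entry stood at 0.298, 0.255 and 0.144 CPM (counts per 1000000 counts of the library) in the shCTRL libraries and at 0.0871, 0.166 and 0.119 CPM in the shINCA1 libraries, and these values overlapped.

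The 6 untreated libraries held 46525032 to 66242859 counts each, with 16790 to 17093 genes above 0. Of 15769 genes tested, 4314 were higher (27.4%) and 4656 were lower (29.5%) in shINCA1 cells at an adjusted p under 0.05 in edgeR's quasi-likelihood test with Benjamini-Hochberg adjustment, together 8970 genes or 56.9%. "Raised" and "lowered" below mean past that threshold, and every log2 difference is shINCA1 minus shCTRL with its standard error. The 3 shINCA1 libraries all lay above the 3 shCTRL libraries for 4792 genes (30.4%) and all below them for 5117 genes (32.4%). Most differences were small. The median absolute log2 difference was 0.32, and 1015 genes were raised and 961 lowered by at least 2-fold. The typical variation of a gene between libraries of a group was 10.7% of its level (common biological coefficient of variation). With this background, a count of called genes in any gene group has to be read against 56.9%, and the direction and size of the differences say more than the count. The plot of level against difference shows differences in both directions at every level.

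**Figure D1:**
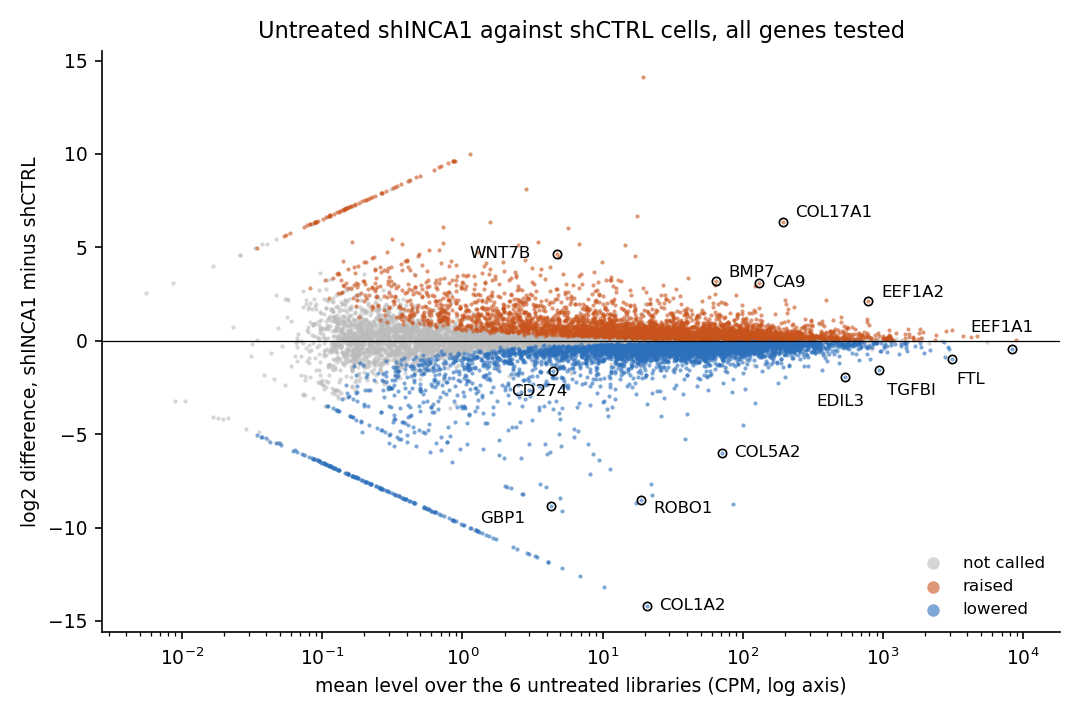
Each point is 1 tested gene: the x axis is the mean level over the 6 untreated libraries (CPM, log axis) and the y axis the fitted log2 difference, shINCA1 minus shCTRL, coloured by whether the gene was raised, lowered or not called (Y-linked genes and XIST are not drawn). Raised and lowered genes occur at every level, from COL17A1 (4.59 to 382 CPM) to EEF1A1 (9565 to 7145 CPM), and the straight lines of points at the upper and lower left are genes at 0 in 1 group, whose fitted difference is no bound.

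The largest differences were close to on-off changes of single genes. COL17A1, the transmembrane collagen of hemidesmosomes, stood at 4.31, 4.90 and 4.55 CPM in the shCTRL libraries and at 375, 392 and 380 CPM in the shINCA1 libraries, a log2 difference of 6.38 ± 0.05. The libraries of each line lay close together and far from those of the other line. Of the 12 raised genes with the largest log2 differences at 5 CPM or more, others were WNT7B, a WNT ligand (0.368 ± 0.0740 to 9.12 ± 1.05 CPM, mean ± SD, n = 3), NOG, which encodes the BMP antagonist noggin (1.26 ± 0.158 to 16.1 ± 0.611 CPM), DCC, a netrin receptor (0.517 ± 0.121 to 7.98 ± 0.319 CPM), and the imprinted noncoding RNA H19 (1.01 ± 0.314 to 18.8 ± 0.243 CPM). TMEM40 rose by a log2 difference of 4.53 ± 0.14, from 1.41 ± 0.253 to 32.8 ± 1.29 CPM.

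In the other direction, 38 genes stood at 0 in all 3 shINCA1 libraries and at 1 CPM or more in each shCTRL library. Of these, 27 were at 0 also in the 3 shINCA1 libraries with IFNγ. COL1A2, the alpha-2 chain of type I collagen, had 42.4, 41.2 and 40.9 CPM in shCTRL and no count in shINCA1, at least 854-fold lower when the shINCA1 level is set at the floor of 3 counts per library. On the same floor HAPLN1, which links hyaluronan to proteoglycans, was at least 419-fold lower. PDZRN3, a ubiquitin ligase, and PTGFR, the receptor of prostaglandin F2-alpha, were at least 282-fold and at least 211-fold lower. SYNGR1, a synaptic vesicle protein gene, and SALL3, a zinc finger transcription factor gene, were at least 124-fold and at least 119-fold lower. TENM1, a teneurin adhesion protein gene, fell from 10.4, 8.66 and 11.7 CPM to 0.0522, 0 and 0 CPM, a ratio of 638 (95% exact interval 218 to 3096, counting error only). The reverse pattern was rarer. Only 8 genes were at 0 in all shCTRL libraries and at 1 CPM or more in each shINCA1 library, among them KRTAP3-1, a hair keratin-associated protein gene (at least 40.9-fold higher), PTGER2, a prostaglandin E2 receptor gene (at least 31.8-fold), and the ephrin receptor gene EPHA6 (at least 28.7-fold). The highest point in the plot of level against difference is the readthrough entry SERF2-C15ORF63, chosen after its values were seen, which stood at 0 in every shCTRL library and at 0, 60.5 and 56.2 CPM in shINCA1, so its groups overlap. A value of the table is an estimate that often equals a multiple of 3, so the floor may stand for about 1 sequenced fragment.

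Resting expression of many, but not all, interferon-stimulated genes was lower in shINCA1 cells. Of 52 tested antiviral interferon-stimulated genes, 28 were lowered and 5 raised (63.5% called against 56.9% of all genes). The median log2 difference was -0.46 against -0.01 over all genes tested. The summed level of the list differed little, at 1353 to 1391 CPM in the shCTRL libraries and 1312 to 1331 CPM in the shINCA1 libraries. GBP1, an interferon-induced GTPase, stood at 8.05, 8.30 and 9.50 CPM in shCTRL and at 0, 0 and 0.0445 CPM in shINCA1, a ratio of 531 (95% exact interval 181 to 2579, counting error only). IFIT1, which binds RNA that lacks the methylation of the host's cap, stood at 5.88, 6.2 and 5.86 CPM in shCTRL and at 1.11, 0.914 and 1.31 CPM in shINCA1, a log2 difference of -2.42 ± 0.11. The libraries of the lines did not overlap for either gene.

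The promoters of 5 lowered genes are shown as examples of the elements known to bring interferon signals to a gene. The sequences below come from the RefSeq promoter table (build GRCh38.p14) and were searched on both strands for TTTCNNTTTC, whose reverse complement is GAAANNGAAA, the core of the interferon-stimulated response element (ISRE) bound by IRF factors, and for the palindrome TTCNNNGAA, the core of the gamma-activated site (GAS) bound by STAT dimers. Of 35116 promoters of 300 bases in that table, 3.57% hold the first motif and 7.66% the second. Capitals mark the matches. Each of the first 3 sequences is the 250 bases before the gene's start on the strand of the gene: GBP1 at chr1:89065209-89065458 on the minus strand, IFIT1 at chr10:89392373-89392622 on the plus strand and CD274 at chr9:5450292-5450541 on the plus strand. The fourth is the plus strand of chr3:122564301-122564341, from the base before the start of PARP9, which is read leftward, to the end of a match that lies across the start of DTX3L, which is read rightward.
GBP1: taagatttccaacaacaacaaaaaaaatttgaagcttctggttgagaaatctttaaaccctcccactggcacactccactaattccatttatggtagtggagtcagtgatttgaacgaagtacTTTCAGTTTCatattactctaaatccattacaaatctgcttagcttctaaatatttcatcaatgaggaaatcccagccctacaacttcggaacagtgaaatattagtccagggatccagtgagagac
IFIT1: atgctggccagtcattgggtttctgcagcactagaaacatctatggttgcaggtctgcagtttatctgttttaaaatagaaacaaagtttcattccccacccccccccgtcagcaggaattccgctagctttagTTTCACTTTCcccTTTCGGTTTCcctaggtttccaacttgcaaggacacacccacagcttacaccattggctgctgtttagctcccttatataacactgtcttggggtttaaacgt
CD274: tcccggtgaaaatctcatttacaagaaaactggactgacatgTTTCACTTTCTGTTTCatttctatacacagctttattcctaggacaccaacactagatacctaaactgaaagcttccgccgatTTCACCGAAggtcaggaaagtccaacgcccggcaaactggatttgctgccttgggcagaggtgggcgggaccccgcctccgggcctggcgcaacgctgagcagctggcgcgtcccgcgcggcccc
DTX3L and PARP9: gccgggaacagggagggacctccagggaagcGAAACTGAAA
The GBP1 match begins 127 bases before the start. IFIT1 has 2 ISRE-type matches, beginning 116 and 103 bases before its start. CD274 has 2 overlapping ISRE-type matches, beginning 208 and 202 bases before its start, and a GAS-type match beginning 125 bases before it. PARP9 and DTX3L start 37 bases apart on opposite strands, and the same ISRE-type match falls in the promoter window of both. A match is a description of the letters, and no measure of binding was made. Among the antiviral genes of the list, the ISRE-type motif was in 16 of the 22 lowered genes with a promoter in the table and in 11 of the 14 genes not called. The motif thus occurred in members of both kinds. Only 78.6% of the lowered genes and 73.7% of those not called had a promoter in the table. Because these shares of genes with a promoter are under 80%, the sets were not compared.

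PARP9 and DTX3L, the neighbours that share this element, encode partners of 1 ADP-ribosyltransferase and ubiquitin ligase complex. PARP9 stood at 20.4, 23.7 and 21.4 CPM in shCTRL and at 5.97, 7.48 and 6.85 CPM in shINCA1 (log2 difference -1.69 ± 0.07), and DTX3L at 29.4, 28.4 and 28.6 CPM against 11.4, 11.2 and 10.3 CPM (log2 difference -1.39 ± 0.04). Both genes were lower in every shINCA1 library than in any shCTRL library. PARP14, on the same chromosome, fell from 49.0 ± 2.04 to 23.1 ± 1.1 CPM, and APOL6, an apolipoprotein L family gene, from 7.58 ± 0.206 to 0.763 ± 0.135 CPM. IFITM1, which restricts the entry of enveloped viruses, fell from 12.1 ± 0.503 to 1.04 ± 0.402 CPM (log2 difference -3.55 ± 0.17). Its chromosome 11 relative IFITM2 moved the other way, from 68.7 ± 4.89 to 125 ± 2.36 CPM (log2 difference 0.86 ± 0.05), and the sequences of these 2 genes are similar enough that reads may be shared between them. The other 4 raised members changed less. TRIM25, which activates the RNA sensor RIG-I, had a log2 difference of 0.32 ± 0.02, the HECT-type ligase genes HERC6 and HERC5 had 0.63 ± 0.15 and 0.22 ± 0.06, and DDX58, which encodes RIG-I, had 0.26 ± 0.10. The call of DDX58 (adjusted p = 0.0415) was lost without shCTRL replicate 1 (adjusted p = 0.192), shCTRL replicate 3 (0.102), shINCA1 replicate 2 (0.159) or shINCA1 replicate 3 (0.0643), and with the 6 untreated libraries fitted alone (0.101). The remaining 19 members did not pass the test.

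Of 35 tested interferon receptor, JAK, STAT, IRF and feedback genes, 15 were lowered and 6 raised (60% called, median log2 difference -0.23). IFNAR1, a chain of the type I interferon receptor, stood at 62.7, 67.1 and 69.7 CPM in shCTRL and at 36.2, 35.0 and 35.7 CPM in shINCA1, a log2 difference of -0.90 ± 0.04. The libraries of the lines were apart. IFNGR1, a chain of the IFNγ receptor, had a log2 difference of -0.80 ± 0.05. IFNGR1 lies on chromosome 6, where the median log2 difference of the 25 tested genes on each side of it was -0.57. JAK1 had a log2 difference of -0.60 ± 0.04 and JAK2 of -0.42 ± 0.08, and NMI, a STAT-interacting protein gene, of -1.18 ± 0.05. Among the raised members, SOCS4, a member of the family of cytokine signalling suppressors, had a log2 difference of 0.62 ± 0.04, with a median of 0.43 over its chromosome 14 neighbours. IRF1, the factor through which IFNγ reaches many of its targets, stood at 15.5, 15.6 and 14.0 CPM in shCTRL and at 12.2, 10.6 and 12.3 CPM in shINCA1 (log2 difference -0.36 ± 0.05).

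Genes of class I antigen presentation were mostly lower, 15 of 21 tested, with 2 raised (81.0% called, median log2 difference -0.29). Some members, among them TAPBP, HLA-B and HLA-C, lie on chromosome 6, where 70.7% of all tested genes were lowered (median log2 difference -0.60). ERAP2, which trims peptides in the endoplasmic reticulum, stood at 29.7, 29.1 and 28.1 CPM in shCTRL and at 8.83, 9.16 and 7.80 CPM in shINCA1, a log2 difference of -1.75 ± 0.06. NLRC5, the transactivator of class I genes, fell by 1.48 ± 0.10 on the log2 scale, from 7.09 ± 0.411 to 2.55 ± 0.464 CPM. TAPBP, which encodes the peptide-loading protein tapasin, fell by 1.11 ± 0.05, against a median of -0.54 over its chromosome 6 neighbours. The chaperone genes CALR and CANX, for calreticulin and calnexin, fell by 0.28 ± 0.02 and 0.27 ± 0.03. The 2 raised members were class I chains, HLA-B (6.39 ± 0.722 to 7.79 ± 0.201 CPM, neighbours' median -0.56) and HLA-C (23.7 ± 6.05 to 34.7 ± 1.01 CPM, neighbours' median -0.54). The call of HLA-B was lost without shCTRL replicate 3 (adjusted p = 0.0561). HLA genes are polymorphic and near-identical to each other, so their counts are uncertain.

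CD274 itself stood at 6.78, 7.04 and 6.24 CPM in shCTRL and at 1.62, 2.28 and 2.60 CPM in shINCA1, and its shINCA1 libraries all lay below its shCTRL libraries. Of 20 tested checkpoint ligand and immune suppression genes, 11 were lowered and 5 raised (80% called against 56.9% of all genes, median log2 difference -0.27). NT5E, the ectonucleotidase CD73 that makes adenosine, fell from 18.5 ± 1.29 to 5.97 ± 1.18 CPM (chromosome 6, neighbours' median -0.57). TGFB3 fell from 24.7 ± 1.95 to 12 ± 0.796 CPM, although the median of its chromosome 14 neighbours was 0.60. Raised members included CD276, the checkpoint ligand B7-H3 (81.0 ± 2.81 to 116 ± 4.33 CPM), TGFB2 (40.4 ± 4.22 to 56.2 ± 1.75 CPM), and, on chromosome 14, the arginase gene ARG2 (log2 difference 0.72 ± 0.05, neighbours' median 0.64) and WARS, the tryptophanyl-tRNA synthetase (0.43 ± 0.02, neighbours' median 0.53). The fifth raised member was ICOSLG, the ICOS ligand (log2 difference 0.25 ± 0.09). Its call (adjusted p = 0.0376) was lost with DESeq2 (adjusted p = 0.0863), with limma-voom (0.0745), with the 6 untreated libraries fitted alone (0.0968), and without shCTRL replicate 1 (0.0924) or 2 (0.145) or shINCA1 replicate 1 (0.132) or 3 (0.109).

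**Figure D2:**
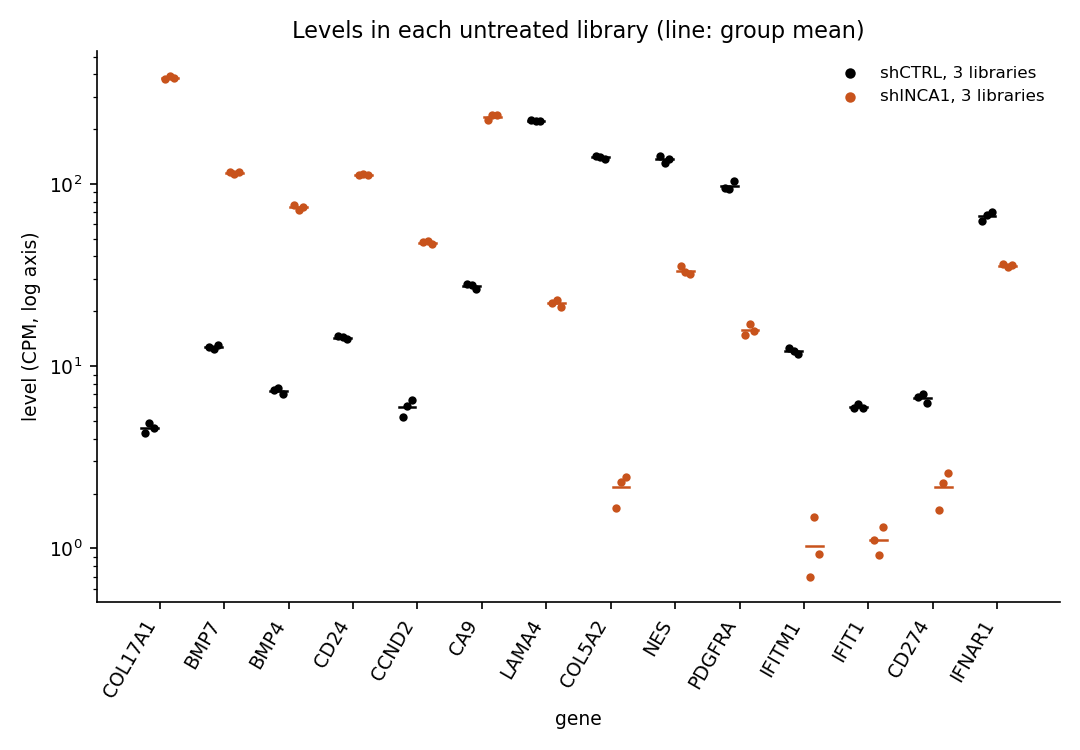
Levels (CPM, log axis) of 14 genes in each of the 3 shCTRL and 3 shINCA1 untreated libraries, with a line at the mean of each group. For every gene drawn, the shINCA1 libraries all lie on 1 side of the shCTRL libraries, from COL17A1 (375 to 392 against 4.31 to 4.90 CPM) to IFNAR1 (35.0 to 36.2 against 62.7 to 69.7 CPM). The genes drawn were picked among called genes, and 62.8% of all tested genes had groups that did not overlap.

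The extracellular matrix changed in both directions. Of 34 tested collagen chains, 17 were lowered and 10 raised (79.4% called, median log2 difference -0.54), and of 47 matrix glycoproteins and crosslinkers, 22 were lowered and 15 raised (78.7% called, median -0.31). COL5A2, a chain of type V collagen, stood at 142, 141 and 137 CPM in shCTRL and at 1.67, 2.33 and 2.48 CPM in shINCA1 (log2 difference -6.01 ± 0.16), and COL6A3, a chain of type VI collagen, at 79.2, 72.5 and 74.4 CPM against 2.49, 1.38 and 1.96 CPM (log2 difference -5.28 ± 0.14). COL1A2, described above, was at 0 in every shINCA1 library, while COL5A2 and COL6A3 kept 1.38 to 2.49 CPM. FN1, which encodes fibronectin, fell from 296 ± 7.72 to 62.5 ± 3.54 CPM, VCAN, the large proteoglycan versican, from 147 ± 5.48 to 21.9 ± 1.08 CPM, TGFBI, an integrin-binding matrix protein induced by TGF-beta, from 1394 ± 36.8 to 463 ± 9.95 CPM, and SPARC, a collagen-binding protein, from 900 ± 13.6 to 440 ± 11.1 CPM. COL14A1, a collagen that associates with fibrils, rose from 32.8 ± 2.04 to 94.0 ± 5.36 CPM, and COL11A1, a minor fibrillar chain of cartilage, from 0.363 ± 0.0879 to 13.2 ± 0.823 CPM. The glycoprotein genes FBLN1 (fibulin-1, log2 difference 1.15 ± 0.03) and THBS1 (thrombospondin-1, 0.64 ± 0.02) rose as well.

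Genes of hyaluronan, the large sugar polymer of brain matrix, were raised in 7 of 12 tested and lowered in 3 (83.3% called, median log2 difference 0.40). HAS3, a hyaluronan synthase, stood at 18.9, 19.0 and 19.5 CPM in shCTRL and at 116, 113 and 58.3 CPM in shINCA1, a log2 difference of 2.33 ± 0.20. The third shINCA1 library was well below the other two but still above every shCTRL library. HAS2, another synthase, rose from 3.0 ± 0.430 to 8.22 ± 0.864 CPM, and CD44, the hyaluronan receptor, from 656 ± 9.46 to 883 ± 27.4 CPM. The other raised members were TMEM2 and HYAL2, both hyaluronidase genes, HYAL3 and LAYN, a receptor gene, with log2 differences of 0.40 to 0.65. The 3 lowered members were HAPLN1 and HAPLN3, both link proteins, and TNFAIP6, which crosslinks hyaluronan chains. HAPLN3 fell from 1.64 ± 0.232 to 0.551 ± 0.119 CPM, and TNFAIP6 from 0.793 ± 0.122 to 0.0174 ± 0.0302 CPM.

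Integrin and laminin chains were redistributed, with 14 of 29 raised and 10 lowered (82.8% called). ITGB4, the beta chain of the hemidesmosome integrin, stood at 78.8, 68.8 and 71.5 CPM in shCTRL and at 339, 321 and 326 CPM in shINCA1, and its partner ITGA6 at 131, 143 and 139 CPM against 271, 294 and 280 CPM. The log2 differences were 2.17 ± 0.05 and 1.03 ± 0.04, and the libraries did not overlap. COL17A1, raised as described above, belongs to the same junction. LAMA4, the alpha-4 laminin chain of vessel and muscle basement membranes, stood at 225, 222 and 221 CPM in shCTRL and at 22.3, 23 and 21.2 CPM in shINCA1, a log2 difference of -3.33 ± 0.06 where its chromosome 6 neighbours had a median of -0.60. ITGB3, the beta chain of the vitronectin receptor, fell from 20.6 ± 0.986 to 1.25 ± 0.238 CPM, ITGA4, a chain of the receptor of VCAM1 and fibronectin, from 32.0 ± 0.407 to 8.94 ± 0.643 CPM, and the laminin chain LAMB1 by 0.73 ± 0.02 on the log2 scale.

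Matrix proteases and their inhibitors showed no common direction, with 16 of 41 raised and 14 lowered (73.2% called, median log2 difference 0.05). MMP3, which encodes stromelysin-1, rose from 1.09 ± 0.357 to 13 ± 0.532 CPM, while MMP7, which encodes matrilysin, fell from 9.42 ± 0.904 to 0.773 ± 0.208 CPM. MMP2, a gelatinase gene, rose from 210 ± 1.62 to 383 ± 1.97 CPM. Within the plasminogen system, PLAUR, the urokinase receptor gene, rose by a log2 difference of 1.37 ± 0.04, from 37.9 ± 1.42 to 97.9 ± 2.55 CPM. ADAM12, a membrane metalloproteinase gene, fell from 154 ± 2.85 to 45.8 ± 0.482 CPM, with a median of -0.47 over its chromosome 10 neighbours.

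Of 30 tested target genes and factors of YAP and TEAD, the transcriptional readers of cell shape and tension, 17 were raised and 7 lowered (80% called, median log2 difference 0.39). F3, the tissue factor gene that starts coagulation, stood at 18.2, 18.9 and 17.0 CPM in shCTRL and at 59.9, 64.6 and 60 CPM in shINCA1, a log2 difference of 1.77 ± 0.05. CRIM1, a membrane-anchored BMP-binding protein gene, rose from 200 ± 6.59 to 417 ± 7.51 CPM, and ANKRD1, an ankyrin repeat protein gene much used as a YAP readout, from 254 ± 8.66 to 478 ± 12 CPM. MYOF and CTGF had log2 differences of 0.74 ± 0.03 and 0.69 ± 0.04, the latter on chromosome 6 with a neighbours' median of -0.59. RBMS3, an RNA-binding protein gene, was lowered, by 1.37 ± 0.07 on the log2 scale.

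Cadherins and protocadherins, the calcium-dependent adhesion molecules, changed by large amounts in both directions. Of 41 tested, 17 were raised and 13 lowered (73.2% called), and the median absolute log2 difference was 1.2 against 0.32 over all genes tested. PCDH17 stood at 21.5, 23 and 23.3 CPM in shCTRL and at 0.209, 0.150 and 0.208 CPM in shINCA1 (log2 difference -6.88 ± 0.12), and PCDH10 at 36.1, 32.8 and 34.9 CPM against 0.104, 0.150 and 0 CPM. Both delta-protocadherin genes were almost silent in the shINCA1 line. The atypical cadherin gene FAT2 fell from 9.96 ± 1.17 to 0.200 ± 0.0138 CPM. CDH13, a cadherin anchored by a lipid tail, rose from 82.9 ± 1.78 to 182 ± 2.56 CPM (neighbours' median 0.54, chromosome 16), CELSR2, a planar polarity cadherin gene, from 64.2 ± 3.23 to 148 ± 4.45 CPM and the clustered protocadherin gene PCDHB5 from 4.21 ± 0.188 to 20.1 ± 0.412 CPM. CDH2, the gene of N-cadherin, changed little, with a log2 difference of 0.26 ± 0.03.

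Junction and keratin genes usual in epithelia were raised in 19 of 31 tested and lowered in 2 (67.7% called, median log2 difference 0.75). KRT18, an intermediate filament keratin, stood at 93.3, 92.6 and 90.3 CPM in shCTRL and at 250, 235 and 257 CPM in shINCA1, and PKP2, the desmosomal plakophilin-2 gene, at 25.8, 26.8 and 27.4 CPM against 110, 102 and 106 CPM. The log2 differences were 1.42 ± 0.04 and 1.99 ± 0.06, without overlap. KRT15 rose from 8.52 ± 1.1 to 32.7 ± 3.41 CPM, DSG2, the desmosomal cadherin desmoglein-2, from 57.1 ± 0.251 to 96.2 ± 0.666 CPM, and CLDN1, the tight junction protein claudin-1, from 6.11 ± 0.668 to 16.6 ± 0.926 CPM. The 2 lowered members were GJB2, the gene of connexin 26 (52.1 ± 2.76 to 29.4 ± 1.97 CPM), and the desmocollin gene DSC2 (0.607 ± 0.232 to 0.0908 ± 0.117 CPM). DSC2 lost its call without shCTRL replicate 1 (adjusted p = 0.0854) or 3 (0.0538) or shINCA1 replicate 1 (0.0638) or 2 (0.0893). The epithelial surface markers EPCAM and CDH1 stayed near 0 in both lines, at means of 0.0544 and 0.0424 CPM in shCTRL and 0.0166 and 0.0463 CPM in shINCA1.

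The markers of the labelled cell type were present in both lines, and most were lower in shINCA1 cells. NES, the neural stem cell filament nestin, stood at 142, 131 and 137 CPM in shCTRL and at 35.6, 32.7 and 32.1 CPM in shINCA1, and VIM, the filament vimentin, at 2580, 2548 and 2466 CPM against 1862, 1780 and 1813 CPM. SOX2, a stem cell transcription factor gene, stood at a mean of 110 ± 2.34 CPM against 80.9 ± 2.92 CPM, and SOX9, a glial one, at 194 ± 4.14 against 207 ± 3.19 CPM. The mature astrocyte markers were low in both lines, GFAP at 1.59 ± 0.258 against 0.348 ± 0.172 CPM and S100B at 2.46 ± 0.635 against 0.327 ± 0.151 CPM. Over the list of neural stem, glial and neuronal genes, 23 of 40 were lowered and 12 raised (87.5% called, median log2 difference -0.51). PDGFRA, the platelet-derived growth factor receptor of glial progenitors, fell from 97.5 ± 5.40 to 15.9 ± 1.14 CPM, HEY1, a Notch target, from 37.7 ± 1.08 to 3.67 ± 0.674 CPM, and SOX4 from 126 ± 2.66 to 50.3 ± 1.23 CPM with a neighbours' median of -0.71 on chromosome 6. Against this direction, CD24, a surface glycoprotein gene that lies on chromosome 6 among lowered neighbours, stood at 14.6, 14.4 and 14.1 CPM in shCTRL and at 112, 113 and 112 CPM in shINCA1, a log2 difference of 2.97 ± 0.06. L1CAM, a neuronal adhesion molecule gene, rose from 8.04 ± 0.662 to 43.9 ± 0.717 CPM.

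Fibroblast and mesenchymal markers were lowered in 16 of 22 tested and raised in 3 (86.4% called), with a median log2 difference of -0.96. SNAI2, a transcription factor of epithelial-mesenchymal transition, stood at 20.6, 22.7 and 20.7 CPM in shCTRL and at 2.16, 2.0 and 1.44 CPM in shINCA1, a log2 difference of -3.52 ± 0.12. The summed level of the list was 4348 to 4489 CPM in the shCTRL libraries and 2730 to 2806 CPM in the shINCA1 libraries, and 1 of its 24 genes was at 0 in all of them. The 3 raised members were CDH2, PDGFRB and ACTA2, with log2 differences of 0.26, 0.54 and 0.58. Of its defining genes, COL1A1 stood at 27.9 ± 2.33 against 18.4 ± 2.33 CPM, THY1 at 250 CPM against 208 CPM, and COL3A1 near 0 in both lines (0.0867 and 0.141 CPM). Markers of blood cells were nearly absent. PTPRC and CD3D had means of at most 0.0180 CPM in either line. The mean of CD14 was 0.578 CPM in the control line and 0.481 CPM in the other, and 10 of the 22 genes of that list were at 0 in all 6 libraries. Its summed level, 51.9 to 55.3 CPM in shCTRL and 36.1 to 41.7 CPM in shINCA1, came mostly from NCAM1 and CD68, which other cells also express. The endothelial gene PECAM1 had means of 0 and 0.0148 CPM and CDH5 of 0.0331 and 0.768 CPM, and the summed endothelial and mural list was at 49.5 to 53.8 CPM in shCTRL and 51.1 to 53.5 CPM in shINCA1, with 3 of 20 genes at 0. In that list 7 of 12 tested genes were raised and 2 lowered (75% called against 56.9% of all genes, median log2 difference 0.53). The raised count was 4 without shCTRL replicate 3. The 2 lowered ones were TAGLN, a smooth muscle actin-binding protein gene (log2 difference -2.99), and the pericyte gene RGS5 (-0.42 ± 0.14), and the lowered count was 1 without shCTRL replicate 1 or shINCA1 replicate 1 or 3. The summed epithelial list was at 1095 to 1154 CPM in shCTRL and 1438 to 1587 CPM in shINCA1, with 6 of 48 genes at 0. Whether a mixture of cells had a part in these differences was not tested. In bulk RNA, fewer cells of a type and less RNA per cell cannot be told apart.

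**Figure D3:**
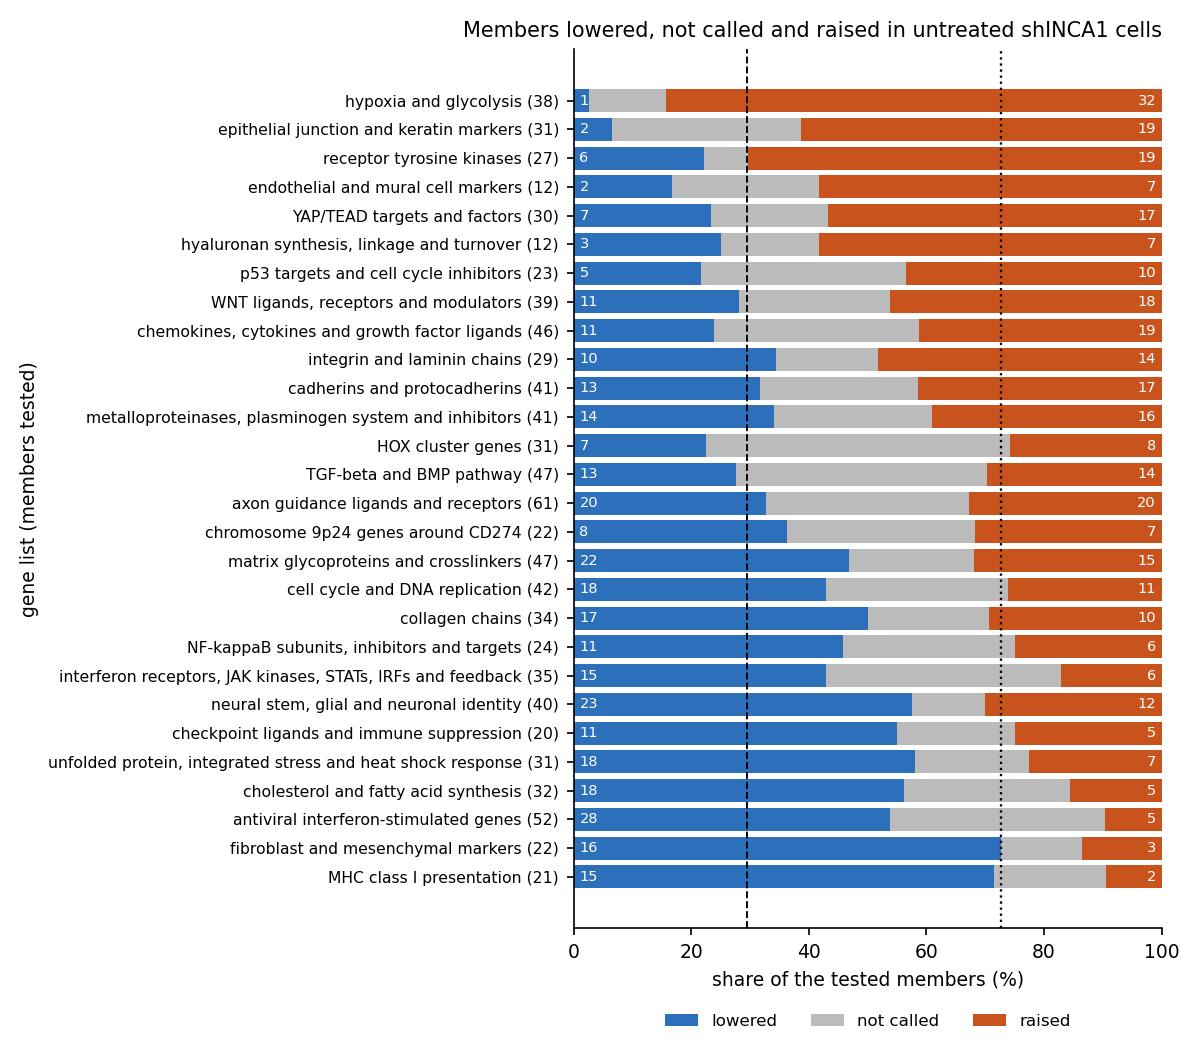
Shares of the tested members (x axis, percent) that were lowered (blue), not called (grey) or raised (orange) in untreated shINCA1 cells, for the 28 gene lists with at least 10 tested members; white digits give the numbers lowered and raised, the dashed line the 29.5% lowered over all genes and the dotted line the start of the 27.4% raised. Hypoxia and glycolysis genes (32 of 38 raised) stand at the top and MHC class I presentation genes (15 of 21 lowered) at the bottom.

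Secreted ligands were raised more often than lowered. Of 46 tested chemokines, cytokines and growth factors, 19 were raised and 11 lowered (65.2% called), and 16 of the raised ones were raised by at least 2-fold. CXCL14, a chemokine of epithelia, stood at 0.696, 0.891 and 0.863 CPM in shCTRL and at 26.7, 27.8 and 29.6 CPM in shINCA1. HGF, the ligand of the receptor MET, rose from 3.13, 3.14 and 2.90 CPM to 21.4, 22 and 22.5 CPM. TGFA, a ligand of the EGF receptor, stood at 55.6, 61.6 and 58.3 CPM in shCTRL and at 166, 194 and 187 CPM in shINCA1, a log2 difference of 1.64 ± 0.07. NRG1, a ligand of ERBB receptors, rose from 18.0 ± 0.324 to 45.5 ± 1.86 CPM, LIF, a cytokine of the interleukin-6 family, from 16.1 ± 0.986 to 41.4 ± 1.26 CPM, and CXCL16, a membrane-bound chemokine, from 16.8 ± 1.56 to 50.9 ± 1.28 CPM. Receptor tyrosine kinases were raised in 19 of 27 tested and lowered in 6 (92.6% called). MET stood at 185, 196 and 200 CPM in shCTRL and at 408, 438 and 419 CPM in shINCA1 (log2 difference 1.12 ± 0.03), so that both HGF and its receptor were higher in each shINCA1 library than in any shCTRL library. FGFR2 and IGF1R, receptors of fibroblast and insulin-like growth factors, had log2 differences of 0.87 ± 0.06 and 0.61 ± 0.03. Besides PDGFRA, NTRK2, the receptor of BDNF, fell from 14.0 ± 0.938 to 4.0 ± 0.496 CPM, and ROS1 from 9.53 ± 0.109 to 3.01 ± 0.0112 CPM.

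Of 47 tested genes of the TGF-beta and BMP pathway, 14 were raised and 13 lowered (57.4% called, median log2 difference -0.02), close to the 56.9% of all genes. BMP4 stood at 7.44, 7.60 and 7.01 CPM in shCTRL and at 76.5, 72.1 and 74.3 CPM in shINCA1, and BMP7 at 12.7, 12.4 and 13.1 CPM against 117, 113 and 116 CPM. The log2 differences of these ligand genes were 3.34 ± 0.07, with a chromosome 14 neighbours' median of 0.39, and 3.18 ± 0.04. The antagonist gene NOG also rose (see above), while CHRDL1, the gene of the antagonist chordin-like 1, fell from 42.8, 45.0 and 44.5 CPM to 0.383, 0.183 and 0.0890 CPM. The receptor genes BMPR1B and BMPR2 fell by 1.16 ± 0.06 and 0.61 ± 0.04 on the log2 scale, and TGFBR2, the type 2 TGF-beta receptor gene, rose by 1.02 ± 0.03.

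In the WNT pathway 18 of 39 tested genes were raised and 11 lowered (74.4% called). DKK1, a secreted inhibitor of WNT signalling, stood at 26.9, 27.3 and 29.2 CPM in shCTRL and at 155, 147 and 149 CPM in shINCA1, a log2 difference of 2.43 ± 0.06. RSPO3, a secreted amplifier of WNT signalling on chromosome 6 (neighbours' median -0.56), rose from 4.97 ± 0.975 to 27.1 ± 1.17 CPM, and ZNRF3, the ubiquitin ligase that R-spondins act against, from 19.3 ± 0.821 to 29.0 ± 0.771 CPM. The receptor gene FZD4 fell from 24.7 ± 0.692 to 6.88 ± 0.125 CPM.

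Genes of axon guidance, which also steer migrating tumour cells, changed in both directions, with 20 of 61 raised and 20 lowered (65.6% called, median log2 difference -0.03). ROBO1, the receptor of the repellent SLIT proteins, stood at 36.8, 37.3 and 37.7 CPM in shCTRL and at 0.0522, 0.150 and 0.0890 CPM in shINCA1, a log2 difference of -8.55 ± 0.21 with a chromosome 3 neighbours' median of -0.50. It was close to silent in every shINCA1 library. The semaphorin gene SEMA3A rose from 62.1 ± 3.39 to 116 ± 5.74 CPM, and NRP2, a semaphorin coreceptor gene, fell from 175 ± 6.32 to 94.1 ± 3.84 CPM. EPHA4, an ephrin receptor gene, fell by 1.66 ± 0.09 on the log2 scale, and NTNG1, a membrane-anchored netrin gene, had a log2 difference of -2.84 ± 0.14. The netrin receptor gene DCC was raised, as given above.

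Cell cycle genes were lowered in 18 of 42 tested and raised in 11 (69.0% called, median log2 difference -0.05). The D-type cyclins stood out among the raised ones. CCND1 stood at 101, 97.3 and 94.3 CPM in shCTRL and at 329, 312 and 318 CPM in shINCA1, and CCND2 at 5.24, 6.03 and 6.55 CPM against 47.8, 48.4 and 46.8 CPM. The log2 differences were 1.72 ± 0.03 and 3.01 ± 0.09, without overlap. CDK2, a kinase of entry into DNA replication, rose by 0.48 ± 0.03. All 18 lowered members fell by less than 2-fold, among them KIF20A, a mitotic kinesin (277 ± 0.737 to 161 ± 1.05 CPM), CCNA2, the gene of cyclin A2 (248 ± 7.33 to 153 ± 1.59 CPM), and MCM3, a subunit of the replicative helicase (432 ± 3.98 to 295 ± 3.98 CPM, chromosome 6 neighbours' median -0.62).

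Hypoxia-responsive and glycolytic genes were raised almost throughout, 32 of 38, with 1 lowered (86.8% called) and a median log2 difference of 0.38. CA9, a carbonic anhydrase that serves as a hypoxia marker, stood at 28.1, 27.9 and 26.6 CPM in shCTRL and at 226, 238 and 239 CPM in shINCA1, a log2 difference of 3.09 ± 0.10. NDRG1, another hypoxia-responsive gene, stood at 60, 61.9 and 63.4 CPM against 163, 187 and 195 CPM, and the glucose transporter gene SLC2A1 at 445, 421 and 437 CPM against 664, 641 and 676 CPM. All 3 genes separated the lines. Of the glycolytic enzyme genes, PGK1 rose by 0.62 ± 0.03, ENO1 by 0.28 ± 0.01 and the neuronal enolase gene ENO2 by 1.21 ± 0.05. The 1 lowered member was GPI, the second enzyme of glycolysis, with a log2 difference of -0.11 ± 0.02.

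Genes of cholesterol and fatty acid synthesis went the other way, with 18 of 32 lowered and 5 raised (71.9% called, median log2 difference -0.22). HMGCS1, an early enzyme of cholesterol synthesis, stood at 88.4, 93.7 and 92.6 CPM in shCTRL and at 28.5, 22.1 and 25.4 CPM in shINCA1, a log2 difference of -1.86 ± 0.08. SQLE, the squalene epoxidase gene, stood at 81.2, 81.5 and 77.8 CPM against 42.2, 40.6 and 41.7 CPM. The lines did not overlap for these genes. MSMO1, a sterol demethylation enzyme gene, fell by 1.19 ± 0.05 on the log2 scale with a chromosome 4 neighbours' median of -0.43. HSD17B7, another enzyme of cholesterol synthesis, had no count in shINCA1 and 6.81 ± 0.324 CPM in shCTRL, and a pseudogene of it could share its reads. Raised members included ACLY (log2 difference 0.18 ± 0.03), TM7SF2 (0.24 ± 0.07) and FADS2 (0.13 ± 0.05). The raised count was 3 without shCTRL replicate 1, where TM7SF2 (adjusted p = 0.0570) and FADS2 (0.120) lost their calls. FADS2 also lost its call without shCTRL replicate 2 or 3 or shINCA1 replicate 1 or 3, at adjusted p of 0.0557 to 0.118.

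Chaperone and stress-response genes were lowered in 18 of 31 tested and raised in 7 (80.6% called), with changes of less than 2-fold in all of them. The raised count was 4 without shCTRL replicate 1 and 3 without shINCA1 replicate 3. HSPA5, the endoplasmic reticulum chaperone BiP, stood at 2372, 2382 and 2428 CPM in shCTRL and at 1502, 1561 and 1573 CPM in shINCA1, and ATF4, the transcription factor of the integrated stress response, at 308, 312 and 299 CPM against 191, 212 and 204 CPM. Both genes were lower in every shINCA1 library. The log2 differences of DNAJB9 and HERPUD1, further genes of the unfolded protein response, were -0.98 ± 0.06 and -0.62 ± 0.04. HSP90AA1, a cytosolic chaperone gene on chromosome 14, was raised instead, from 2046, 2768 and 2745 CPM to 3613, 3759 and 3730 CPM, with a neighbours' median of 0.53.

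Among the genes with the largest differences in mean CPM, besides HSP90AA1, PGK1, ENO1, HSPA5 and TGFBI given above, was PPIA, the gene of the protein folding enzyme cyclophilin A (2284, 2301 and 2308 CPM in shCTRL against 3258, 3259 and 3339 CPM in shINCA1). EEF1A2, an isoform of translation elongation factor 1-alpha typical of neurons and muscle, stood at 309, 291 and 292 CPM in shCTRL and at 1368, 1177 and 1282 CPM in shINCA1, while EEF1A1, the isoform of most tissues, stood at 9477, 9493 and 9725 CPM against 7065, 7203 and 7167 CPM. The genes moved in opposite directions, by log2 differences of 2.10 ± 0.05 and -0.42 ± 0.02, on chromosome 20 (neighbours' median 0.34) and chromosome 6 (-0.68). Because they are paralogs with many pseudogenes, their reads may be shared. FTL, the ferritin light chain gene, fell from 4132 ± 142 to 2108 ± 76.8 CPM, with a chromosome 19 neighbours' median of -0.38. The actin gene ACTG1 fell from 3581 ± 131 to 1946 ± 73.9 CPM and the nonmuscle myosin gene MYH9 from 1071 ± 32.0 to 547 ± 12 CPM. EDIL3, a secreted integrin ligand gene, stood at 846, 839 and 872 CPM in shCTRL and at 223, 227 and 225 CPM in shINCA1. CAV1, the gene of the membrane coat protein caveolin-1, rose from 513 ± 14.8 to 1027 ± 14.2 CPM.

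The differences were not spread evenly over the genome. Gene symbols were placed on chromosomes with the RefSeq table of GRCh38, which served for the chromosome and gene order only. On chromosome 6, 574 of 812 tested genes were lowered (70.7%) and 36 raised (4.43%), and the median log2 difference was -0.60. On chromosome 14, 301 of 483 were raised (62.3%) and 50 lowered (10.4%), with a median of 0.46. The medians of the other chromosomes lay between -0.13 (chromosome 3) and 0.23 (chromosome 15). In windows of 51 consecutive tested genes, every window of chromosome 6 had a median below 0, the lowest being -0.75 from C6orf62 to ZNF165. On chromosomes 3, 10 and 4 the lowest window ran from ABHD6 to EPHA3 on chromosome 3 (-0.62), which holds 44 genes below 0 of 51, from PDCD4-AS1 to HTRA1 on chromosome 10 (-0.48) and from ARFIP1 to FBXO8 on chromosome 4 (-0.45). On chromosomes 16, 19 and 7 the highest window ran from NECAB2 to CHMP1A on chromosome 16 (0.57, with 46 genes above 0 of 51), from ZNF350-AS1 to TFPT on chromosome 19 (0.46) and from PMS2 to CDCA7L on chromosome 7 (0.42). The chromosome 6 and 14 medians with IFNγ were -0.63 and 0.45. DNA copy number was not measured, and its part in these differences was not tested. CTGF, CDKN1A, CD24 and RSPO3 were raised although they lie on chromosome 6, CDKN1A from 50.5 ± 2.34 to 88.2 ± 2.33 CPM.

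**Figure D4:**
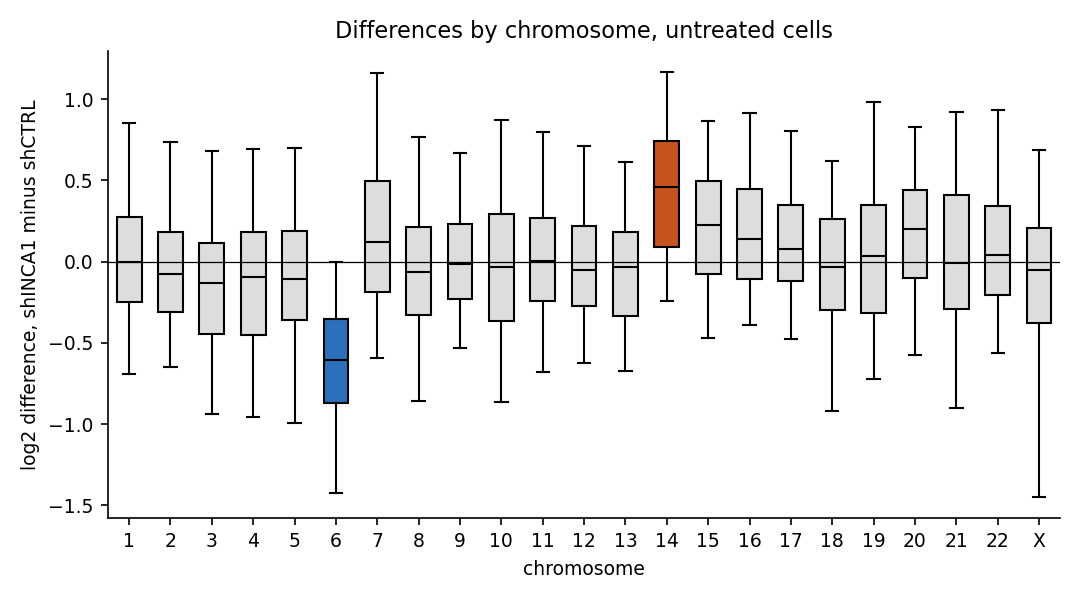
Log2 differences (shINCA1 minus shCTRL, untreated) of the tested genes on each chromosome: boxes run from the lower to the upper quartile with a line at the median and whiskers reach from the 10th to the 90th percentile. Chromosome 6 (blue, median -0.60) lies below and chromosome 14 (orange, median 0.46) above all others.

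The same contrast in the IFNγ-treated libraries, which are separate libraries of the same lines in the same fit, called 9291 genes (58.9%). Of the untreated calls, 3713 were raised and 4037 lowered in both, which is 86.4% of the untreated calls and 83.4% of the calls with IFNγ. Another 35 genes raised without IFNγ were lowered with it, and 11 lowered without it were raised. The log2 differences of the 15769 genes had a Pearson r of 0.843 and a Spearman rho of 0.848 between conditions, as a description across genes that share the lines and the fit. The test of the difference between the contrasts called 270 genes (1.71%). COL17A1 was among those not called, with log2 differences of 6.38 without and 6.24 with IFNγ, and so were LAMA4 (-3.33 and -3.54), NES (-2.03 and -2.0), BMP7 (3.18 and 3.40), CA9 (3.09 and 3.18) and CD274 (-1.62 and -1.25, adjusted p of the difference 0.406 in edgeR's test).

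Interferon-inducible genes were among those whose line difference did depend on IFNγ. GBP1 averaged 8.61 CPM in shCTRL and 0.0148 CPM in shINCA1 without IFNγ, and 984 against 144 CPM with it. APOL6 averaged 7.58 against 0.763 CPM without and 419 against 206 CPM with IFNγ, so that its log2 difference moved from -3.30 to -1.02 (difference 2.28 ± 0.10, adjusted p = 2.08e-07 in edgeR's test). DTX3L moved in the same way, from -1.39 to -0.61 (difference 0.79 ± 0.06), PARP9 from -1.69 to -0.67 and ERAP2 from -1.75 to -0.81. For these genes the ratio between the lines was smaller once IFNγ was present, while the gap in CPM was wider. PARP9, for example, averaged 21.8 against 6.77 CPM without and 190 against 120 CPM with IFNγ. In the opposite sense, TAP1, a chain of the peptide transporter, went from -0.29 to -1.39 (difference -1.11 ± 0.04), and JAK2 from -0.42 to -1.46. WARS, SAMHD1 (a phosphohydrolase of deoxynucleotides), IFI30 (a lysosomal thiol reductase) and HLA-B were higher in shINCA1 without IFNγ and lower with it, WARS at 120 against 163 CPM without and 1599 against 1189 CPM with IFNγ. ANKRD1, THBS1 and HAS2 differed more on the log2 scale with IFNγ than without, ANKRD1 by log2 differences of 1.84 and 0.91. CLDN1 was raised without IFNγ (1.44 ± 0.07) and had a log2 difference of -0.05 with it.

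**Figure D5:**
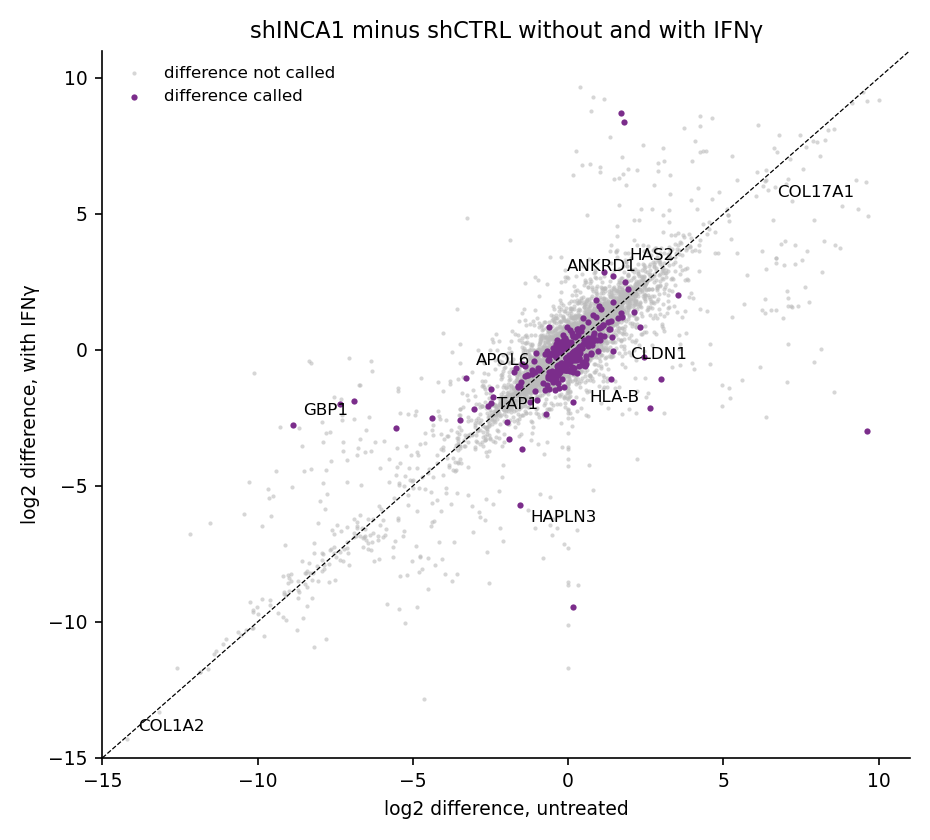
Log2 difference between the hairpin lines (shINCA1 minus shCTRL) without IFNγ (x axis) and with IFNγ (y axis), 1 point per tested gene, with purple for the 270 genes whose differences themselves differ and a dashed line of equality. Most genes follow the line, GBP1 (-8.87 and -2.77) and APOL6 (-3.30 and -1.02) lie above it, and HAPLN3 (-1.56 and -5.71) lies below it.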

How the data were processed

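Poly(A) RNA of 12 libraries, 3 for each of 4 groups, had been sequenced, and 1 table of 27685 genes was used. Its values are estimated counts per gene, whole numbers that the authors deposited without scaling; per the submitters' processing notes, Trimmomatic, HISAT2 and StringTie were used with the hg19 build, with neither tool versions nor the strand setting of the counting stated. Low values of the table pile up at multiples of 3 (the value 3 occurs 5790 times and the value 4 occurs 1317 times), so counting intervals are too narrow.

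From the table, 7434 genes at 0 in every library and those removed by edgeR's filterByExpr were left out, and the remaining 15769 went into edgeR 4.0.16 under R 4.3.3 (TMM factors, quasi-likelihood F test, 1 coefficient for each of the 4 groups, so that all 12 libraries share 1 estimate of the spread). P-values were adjusted by Benjamini-Hochberg over all genes tested, with a threshold of 0.05, and every adjusted p comes from this fit unless another tool is named. CPM values use TMM-scaled library sizes. The TMM factors of all 12 libraries ran from 0.965 to 1.03. Standard errors were taken from the log2 difference and the F value. For a gene at 0 in 1 group the fold is a lower bound against a floor of 3 counts per library, and ratios with few counts have exact 95% intervals for counting error only. On simulated counts, 92.9% of 98 genes changed 2-fold and 99.0% of 100 genes changed 4-fold were called in the untreated contrast. Of 15464 genes tested there, 13 unchanged genes were called too. In the simulation few genes changed, balanced in direction, and every gene had the same spread. It therefore does not show the rate of false calls in these libraries, where 56.9% of genes were called.

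The gene lists were chosen with earlier results of these data known, and so was the comparison. The rule for naming took the 12 genes in each direction with the largest difference of mean CPM and with the largest log2 difference (5 CPM or more in the higher group), the 8 highest genes at 0 in 1 line, up to 6 called members of each list by p, all members of counts of 5 or fewer, the 5 genes in each direction with the smallest p for the dependence on IFNγ, and the genes of the study. SOX2, SOX9, GFAP, S100B, HYAL2, HYAL3, LAYN, SERF2-C15ORF63, the defining markers of other cell types (EPCAM, CDH1, COL1A1, COL3A1, THY1, PTPRC, CD3D, CD14, PECAM1 and CDH5) and the genes that bound a chromosome window lie outside that rule and were chosen after their values were seen. Symbols were matched to the RefSeq table of GRCh38.p14 for chromosome and order, 14691 by symbol and 736 by synonym, and 342 were not matched. "Neighbours" are the 25 tested genes on each side of a gene. Alternatives were DESeq2 1.42.0, limma 3.58.1 (voom), other size factors, other filters, a minimum fold of 2, the replicate block, the 6 untreated libraries alone and leaving out each library. Some items are not reported here. Paralogs, pseudogenes and overlapping genes can share reads in this counting.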

Additional observations from a re-analysis of the deposited data

Results flagged for a closer look

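For 36 of the 240 genes named by the rule, the difference between the hairpin lines itself differed with and without IFNγ in edgeR's quasi-likelihood test of the 2 contrasts. The values below are the log2 difference with IFNγ minus that without, 14 of them positive and 22 negative. A positive value means a smaller deficit or a larger excess in shINCA1 cells, as a ratio and not in CPM, once IFNγ was present.

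Among the positive ones were interferon-inducible genes whose deficit on the log2 scale was smaller with IFNγ. The value was 6.10 for GBP1, 2.28 for APOL6, 1.02 for PARP9, 0.97 for NLRC5, 0.94 for ERAP2, 0.79 for DTX3L, 0.69 for IFIT1 and 0.45 for NMI. The value of GBP1 rests on 1 nonzero untreated shINCA1 library and is no bound. The other positive genes were HAS2 (1.25), ANKRD1 (0.93), SOX4 (0.42), THBS1 (0.38), SEMA3A (0.31) and SQLE (0.23).

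Among the negative ones, interferon-inducible genes were at -1.14 for HLA-B, -1.13 for IFI30, -1.11 for TAP1, -1.04 for JAK2, -0.95 for SAMHD1, -0.86 for WARS, -0.60 for DDX58 and -0.47 for TRIM25. Adhesion, matrix and junction genes were at -4.15 for HAPLN3, -1.49 for CLDN1, -0.48 for ITGA6 and -0.31 for PLAUR. The remaining values were -1.08 for ACTA2, -0.58 for NRG1, -0.53 for TNFAIP2, -0.42 for CXCL16, -0.34 for CCND1, -0.31 for CDKN1A, -0.24 for CRIM1, -0.22 for MET and -0.19 for CAV1. CEP170P1, a pseudogene with no count in 1 untreated line, had a fitted value of -12.6, which is no bound.

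In 8 of the 36 genes the lines differed past the threshold in opposite directions with and without IFNγ.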

How the results depend on the processing

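The counts of raised and lowered genes in untreated shINCA1 cells, 4314 and 4656, moved to 529 and 583 when a change beyond 2-fold was tested (glmTreat), and lay between 3858 and 4536 and between 3627 and 4743 under every other alternative run. Leaving out 1 library at a time gave 3858 to 4284 raised and 4326 to 4518 lowered genes. The share of raised genes among those called ran from 46.7% to 51.7% against 48.1%. The count of genes whose line difference depended on IFNγ, 270, was 509 with DESeq2's Wald test, 6 with the minimum fold of 2, and 174 to 235 when 1 library was left out, lowest without shINCA1 untreated replicate 3 and 179 without shCTRL IFNγ replicate 2. The cause was not tested. Libraries with the same replicate number deviated together only weakly (correlations of -0.05 to 0.14). Libraries with different numbers had correlations of -0.12 to 0.084. These ranges overlap, so they cannot settle whether the numbers pair the samples. With the replicate block the counts were 4280, 4619 and 237, and of the named genes FADS2 had an adjusted p of 0.0518. DESeq2 gave no adjusted p for 21 genes. Of the recomputed values of the 240 named genes, 3427 kept direction and side of the threshold, 148 fell short of the threshold and 0 changed direction. Outside the minimum fold, those that fell short belonged to DSC2, DDX58, HLA-B, ICOSLG, TM7SF2, FADS2, KDR and RGS5. RGS5 had adjusted p of 0.0740 to 0.0917 and KDR of 0.0603 to 0.0734 in the settings where they did. Depth limits low genes: the floor of 3 counts per library is 0.0552 CPM in untreated shCTRL and 0.0487 CPM in untreated shINCA1.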

Other observations

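HOX genes keep positional identity. In the untreated comparison 15 of 31 tested were called (48.4% against 56.9% of all genes), a description that was not tested. Of these, 8 were raised and 7 lowered. The raised count was 5 without shCTRL replicate 1 or 3, and the lowered count 4 without shINCA1 replicate 2. Lowered members included HOXD11 (10.5 ± 0.203 to 4.62 ± 0.345 CPM) and its neighbour HOXD10 (7.80 ± 0.538 to 2.89 ± 0.429 CPM), and raised members HOXC13 (11.1 ± 1.57 to 25.9 ± 1.94 CPM) and HOXA4 (0.579 ± 0.0584 to 1.91 ± 0.413 CPM). Of the metal-binding metallothionein genes, MT1E had 4.62, 5.33 and 4.87 CPM in shCTRL and no count in shINCA1 (at least 101-fold lower), whereas MT2A rose by a log2 difference of 0.21 ± 0.05 and MT1X by 0.29 ± 0.08. MT3, the form of the brain, had no count in shCTRL and 0.571 ± 0.414 CPM in shINCA1.

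NF-kappaB genes were lowered in 11 of 24 tested and raised in 6 (70.8% called). The complement gene C3 fell from 6.33 ± 0.211 to 1.1 ± 0.188 CPM and BCL3, a nuclear IkappaB family gene, from 17.2 ± 1.2 to 6.42 ± 0.746 CPM. The adhesion gene VCAM1 had 0.918 ± 0.142 CPM in shCTRL and no count in shINCA1 (at least 18.7-fold lower), and TNFAIP2 rose from 40.3 ± 2.14 to 99.7 ± 5.90 CPM with a chromosome 14 neighbours' median of 0.56. Of 23 tested p53 targets and cell cycle inhibitors, 10 were raised and 5 lowered (65.2% called against 56.9% of all genes). Log2 differences were 0.88 ± 0.04 for the nuclease gene AEN and 0.81 ± 0.04 for CDKN1A, the gene of the inhibitor p21. They were 0.51 ± 0.03 for the death receptor gene TNFRSF10B and -0.47 ± 0.04 for PMAIP1, a proapoptotic gene. Around CD274 on chromosome 9p24, 7 of 22 tested genes were raised and 8 lowered (68.2% called against 56.9% of all genes). The median log2 difference was -0.02. CD274 itself, given above, was among the lowered ones, as was its neighbour PDCD1LG2 (1.80 ± 0.386 to 0.674 ± 0.204 CPM). CDC37L1 fell from 37.2 ± 1.26 to 27.5 ± 2.10 CPM, while GLDC, the glycine decarboxylase gene, rose from 8.16 ± 0.534 to 17.4 ± 0.883 CPM and SLC1A1, a glutamate transporter gene, from 15.9 ± 1.30 to 25.9 ± 1.19 CPM.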
